A study of Mus musculus with 16 samples.

Results

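Oligodendrocyte precursor cells (OPCs) divide under the growth factor PDGF-A, and a fraction of them leaves the cell cycle, passes through a committed, premyelinating stage and becomes myelinating oligodendrocytes. Each step has genes that are commonly used to follow it, and 10 of them are described here: *Pdgfra*, *Cspg4*, *Olig1*, *Olig2*, *Sox10*, *Gpr17*, *Enpp6*, *Bmp4*, *Neu4* and *Myrf*. They were taken by gene symbol from the 21878 mRNAs of the deposited tables, and the rule uses no measured value. All 10 were found, and all 10 were tested, as were 17885 mRNAs in all, each with 16 or more counts summed over the libraries.

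The libraries were made from brain cells sorted as CD11b+/CD45int microglia, from 8 mice with experimental autoimmune encephalomyelitis (EAE mice) and 8 controls injected with phosphate-buffered saline (PBS-treated mice). All mice were wild-type C57BL/6 females, 8 weeks old, and brains were taken on day 14, the peak of disease. EAE mice received the myelin peptide MOG, with residues 35 to 55 given in the methods, in complete Freund's adjuvant, and 200 ng of pertussis toxin on days 0, 2 and 7. The treatment field of the labels gives a last residue that runs from 55 in EAE 1 to 62 in EAE 8. The EAE mice therefore differed from the controls in the peptide, the adjuvant and the toxin together. Libraries are named by group and replicate number, and total counts ranged from 24587443 to 30244215 for EAE and from 26031889 to 34184576 for PBS libraries.

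The sort was aimed at microglia, so the levels of other cell types were measured beside the 10 genes. FPKM scales the counted fragments by transcript length and library total, and can be compared between genes. The summed FPKM of 10 microglia genes was 130 to 210 for EAE and 112 to 189 for PBS libraries. The sum of 15 mature oligodendrocyte genes was 1061 to 1474 and 1163 to 1428, that of 6 astrocyte genes 827 to 1202 and 945 to 1095, and that of 7 neuron genes 713 to 911 and 889 to 975. Transcripts of neurons and macroglia were thus measured at high levels in every library of the sort. In such bulk samples, fewer cells of a type and less RNA per cell cannot be told apart. Of these marker lists, *Itgam* and *Trem2* of microglia and *Gfap* of astrocytes were higher in EAE mice in edgeR's quasi-likelihood test (adjusted p under 0.05), though *Gfap* was not within the 6 libraries set apart below (log2FC −0.05). *Gad1* and *Syt1* of neurons and *Vtn* of pericytes were lower. *Gfap* went against its list, in which 1 gene was higher and 5 were lower, with a median log2FC of −0.17. By the sign of the log2FC, 9 microglia genes were higher and 1 lower. Of the neuron genes 1 was higher and 6 were lower, and all 6 pericyte genes were lower. The call on *Vtn* was kept in only 4 of the 16 fits that left out a library (adjusted p up to 0.0933, without PBS 2), and that on *Syt1* in 9 (up to 0.0781, without PBS 2). For *Trem2* 11 were kept (up to 0.0661, without EAE 2), and for *Gfap* 8 (up to 0.0720, without PBS 2). With limma on log2(FPKM + 0.1), the adjusted p was 0.0757 for *Vtn* and 0.0926 for *Syt1*. The call on *Trem2* was lost both within the 6 libraries set apart below (adjusted p = 0.0729 in edgeR's test) and within the other 10 (0.11). No endothelial, fibroblast or T cell gene passed. The 3 T cell genes summed to at most 0.579 FPKM in any library. Of 5 neutrophil genes, *Ngp*, *Ltf*, *S100a9* and *S100a8* were higher, and the list summed to 19.5 to 57.9 for EAE and 7.59 to 21.0 for PBS libraries. Within the 10 libraries outside the 6 set apart below, edgeR's test called only 0.0745% of all mRNAs. There the calls on *Itgam* (adjusted p = 0.0637), *Gad1* (0.118), *Syt1* (0.159) and *Vtn* (0.580) were lost too. So were those on *Ngp* (0.114), *Ltf* (0.145), *S100a9* (0.139) and *S100a8* (0.187).

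Some libraries resembled each other more than others did. Their distance was measured as the median squared difference of a pair relative to counting noise, so that 1 means no more than noise. It was 3.06 to 3.56 among EAE 6, 7 and 8 and 5.69 to 24.0 for the other EAE pairs, and 3.27 to 4.0 among PBS 5, 7 and 8 and 7.26 to 23.4 for the other PBS pairs. The labels name no batch. Values within these 6 libraries and within the other 10 are given below for the genes the results turn on. The 6 were picked for their likeness, so the spread in that set is small by choice and its p-values are too small. A fit with the set as a term rests on the same choice, so its p-values can be too small as well.

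None of the 10 genes differed between EAE and PBS-treated mice at an adjusted p under 0.05 in the edgeR quasi-likelihood test with Benjamini-Hochberg adjustment over all 17885 mRNAs. Of all mRNAs tested, 433 passed (2.42%), and 315 were lower in EAE mice (1.76%). Both this threshold and a |log2FC| over 1 were passed by 21 mRNAs (0.117%). DESeq2 and limma on log2(FPKM + 0.1) also called 0 of the 10 genes. At an unadjusted p under 0.05, edgeR's test gave 1 gene, *Olig1*, where 17.4% of all mRNAs passed, and DESeq2 and limma gave 2 each. By the sign of edgeR's log2FC, 8 genes were lower in EAE mice, and *Sox10* and *Myrf* were higher. The median log2FC was −0.11, against 0.01 over all mRNAs, of which 47.3% were lower. Of the 8, *Enpp6* (1.021 in EAE and 1.014 in PBS libraries) and *Bmp4* (0.755 and 0.752) had a slightly higher mean FPKM in EAE libraries. For 8 of the 10 genes, the 95% confidence interval of the fold lay within a 1.5-fold change in either direction. The exceptions were *Olig1* and *Gpr17*. The plot of log2FC by gene shows these intervals.

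**Figure D1:**
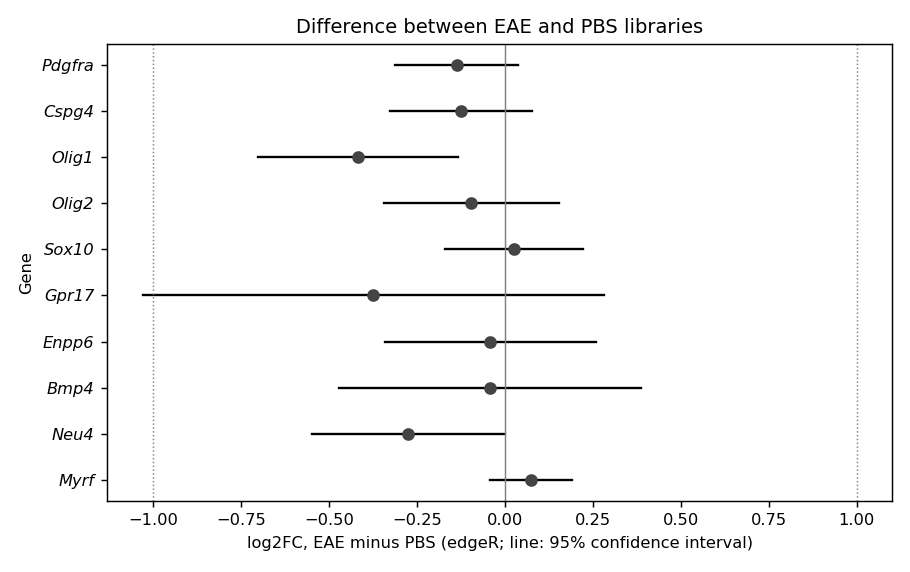
Difference between EAE and PBS-treated mice for the 10 genes (y axis), as log2FC from edgeR's quasi-likelihood test (x axis, EAE minus PBS; points, estimate; lines, 95% confidence interval; dotted lines, log2FC of −1 and 1; 8 libraries per group). The interval of *Olig1* (−0.70 to −0.13) lies below 0, that of *Gpr17* (−1.03 to 0.28) is the widest, and the other 8 include 0.

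The precursor surface proteins come first. *Pdgfra* encodes the receptor for PDGF-A that keeps OPCs dividing, and it was the second most abundant of the 10 genes. Its FPKM had a lowest value of 11.8, a median of 12.7 and a highest value of 16.9 in EAE libraries, against 12.8, 13.6 and 17.6 in PBS libraries. The groups overlapped over most of their range, with 4 EAE libraries below every PBS library. The log2FC was −0.14 (SE 0.085, adjusted p = 0.427 in edgeR's test), and its interval ran from −0.31 to 0.04. *Cspg4* encodes the NG2 proteoglycan, which is carried by OPCs and also by pericytes. Its FPKM was 5.04, 5.82 and 7.61 (lowest, median and highest) in EAE libraries and 4.84, 6.56 and 7.66 in PBS libraries, so every EAE library fell within the PBS range. The log2FC was −0.12 (SE 0.097, adjusted p = 0.551 in edgeR's test). The sign of *Cspg4* turned within the 6 libraries most alike, to a log2FC of 0.10. The summed FPKM of the 6 pericyte genes was 30.3 to 45.8 for EAE and 32.5 to 47.5 for PBS libraries. With group means removed, Pearson's r of *Cspg4* with the pericyte genes over the 16 libraries was 0.179 (permutation p = 0.511). It was 0.772 within EAE and −0.354 within PBS libraries. The part of pericytes in the *Cspg4* values was not tested.

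*Olig1*, a basic helix-loop-helix transcription factor of the oligodendrocyte lineage, had the highest level of the 10 genes and the smallest p-value in edgeR's test. Its FPKM was 20.7 at the lowest, 23.6 at the median and 40.5 at the highest in EAE libraries, against 27.0, 34.4 and 41.6 in PBS libraries. In 6 of the 8 EAE libraries the level was below that of every PBS library, and the 2 exceptions were EAE 4 with 40.5, among the upper PBS values, and EAE 5 with 35.4, near the PBS median. The mean of the EAE group was 26.6 ± 7.34 (SD, n = 8) and that of the PBS group 34.3 ± 6.33 (SD, n = 8). On the counts, the log2FC was −0.42 (SE 0.14, 95% confidence interval −0.70 to −0.13), which is a fold of 0.748. The unadjusted p was 0.00584 and the adjusted p 0.107 in edgeR's quasi-likelihood test. On FPKM, the exact permutation test over all divisions of the libraries into 8 and 8 gave a two-sided p of 0.0457, or 0.262 after adjustment over all mRNAs. By that test 18.4% of all mRNAs had a p under 0.05, and with 1 library left out the exact permutation p of *Olig1* was 0.00979 to 0.0814.

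The call on *Olig1* depended on single libraries. Without EAE 4, the log2FC was −0.53 with an adjusted p of 0.0117 in edgeR's test, in a fit that called 7.38% of all mRNAs. Without EAE 5, it was −0.49 with an adjusted p of 0.0407, where 5.05% were called. Leaving out any of the other 14 libraries kept the adjusted p above 0.05, up to 0.218 without PBS 2. With the set of libraries as a term in the model, the log2FC was −0.42 and the adjusted p 0.0219 (4.29% of all mRNAs called). Among the 6 libraries most alike it was −0.39 with an adjusted p of 1.18e-05, where 24.1% of all mRNAs were called. Within the other 10 libraries it was −0.44 with an adjusted p of 0.286, where 0.0745% were called. The log2FC thus lay between −0.53 and −0.37 in every fit with a library left out or the sets separated, as the plot of *Olig1* by fit shows, while the side of the threshold changed.

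**Figure D2:**
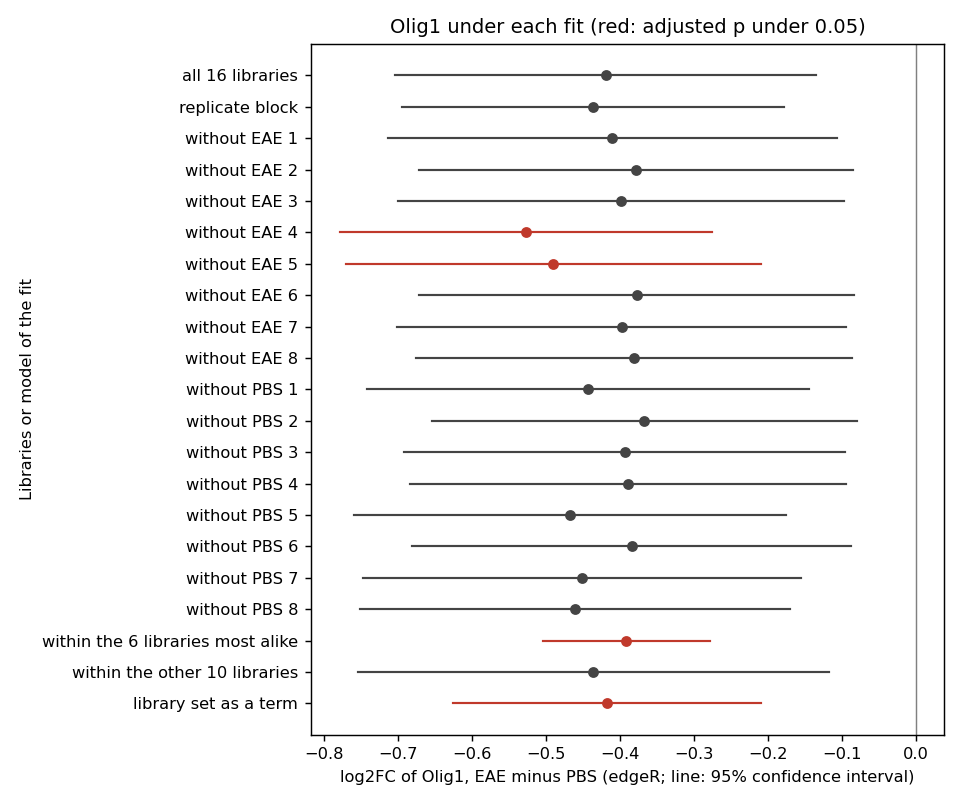
log2FC of *Olig1* (x axis, EAE minus PBS) under fits of edgeR's quasi-likelihood test (y axis). Points give the estimate, lines the 95% confidence interval and red an adjusted p under 0.05. Shown are all 16 libraries, the replicate block, each library left out and the library sets. Every plotted interval lies below 0, and the adjusted p was under 0.05 without EAE 4, without EAE 5, within the 6 libraries most alike and with the library set as a term. Other scalings, filters and the robust fit are not plotted (adjusted p 0.106 to 0.164).

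*Olig2* encodes a transcription factor related to *Olig1* that specifies the lineage and is also expressed by some astrocytes. Both genes lie on the plus strand of chromosome 16 (GRCm38, GENCODE M21), *Olig2* at 91225457 to 91228677 and *Olig1* at 91269772 to 91271933, with 41094 bases between them. The FPKM of *Olig2* was 5.63, 6.62 and 9.65 (lowest, median and highest) in EAE libraries and 5.39, 7.31 and 9.60 in PBS libraries. Unlike *Olig1*, its values covered the same range in both groups, with a log2FC of −0.10 (SE 0.12, adjusted p = 0.736 in edgeR's test). The FPKM of *Olig1* divided by that of *Olig2* in the same library was 3.73 ± 0.816 (SD, n = 8) in EAE libraries, against 4.68 ± 0.668 in PBS libraries. In 5 EAE libraries this ratio was below that of every PBS library. Divided by *Pdgfra*, *Olig1* gave 1.93 ± 0.240 and 2.38 ± 0.236, with 6 EAE libraries below all PBS libraries. Within the 6 libraries most alike, *Olig1* over *Pdgfra* was 1.76 to 1.85 in EAE and 2.11 to 2.17 in PBS libraries, and within the other 10 it was 1.79 to 2.39 and 2.36 to 2.76. These ratios were chosen after the values of *Olig1* were seen and are given without a test.

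*Sox10* encodes a transcription factor that is needed throughout the lineage and in Schwann cells. Its FPKM was 5.64, 6.49 and 8.20 (lowest, median and highest) in EAE libraries and 5.44, 6.16 and 7.88 in PBS libraries. The groups overlapped, and the log2FC of 0.03 (SE 0.095, adjusted p = 0.924 in edgeR's test) turned negative without EAE 1, EAE 4 or PBS 5. Myelin regulatory factor, encoded by *Myrf*, switches on myelin genes in differentiating oligodendrocytes and is kept on in mature ones. Its FPKM was 13.0, 13.9 and 14.1 in EAE libraries and 11.2, 11.9 and 14.5 in PBS libraries. Every EAE library lay above the PBS median and within the PBS range, with a coefficient of variation of 3.37% in EAE and 10.6% in PBS libraries. The exact permutation test on FPKM gave a two-sided p of 0.0373 for *Myrf*, or 0.243 after adjustment over all mRNAs, and 0.0104 to 0.0749 with 1 library left out. The log2FC on counts was 0.07 (SE 0.056, adjusted p = 0.534 in edgeR's test). Among the 6 libraries most alike it was 0.17 with an adjusted p of 0.00660, in the fit that called 24.1% of all mRNAs. *Pdgfra*, *Gpr17* and *Olig1* were the genes called lower there.

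**Figure D3:**
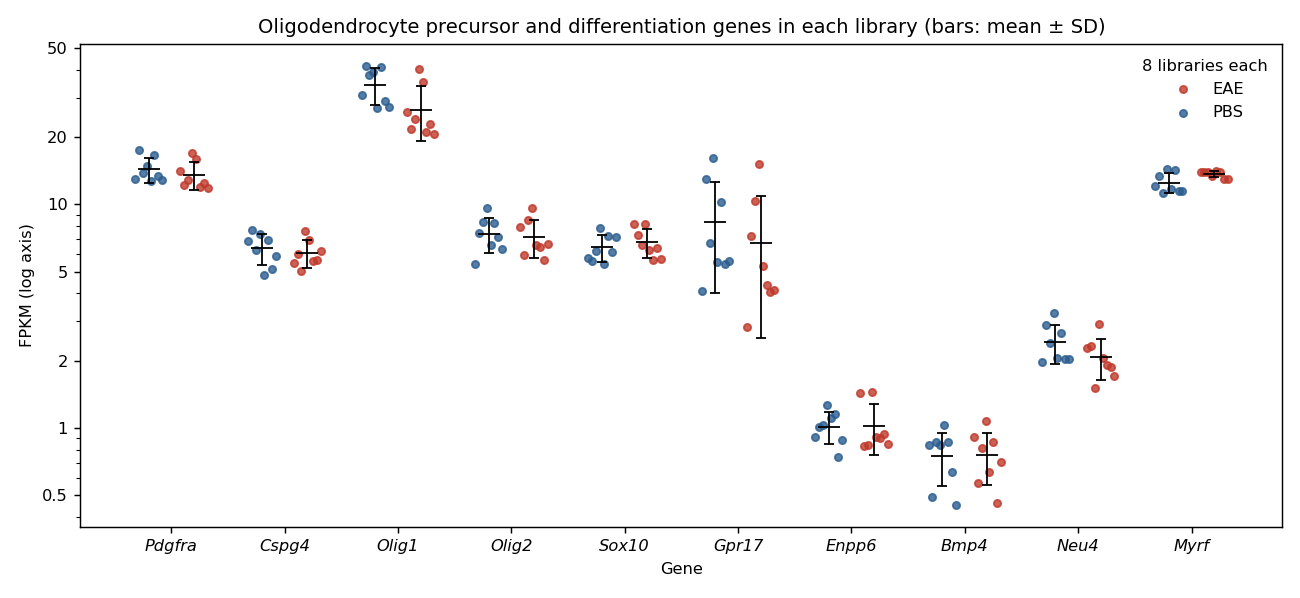
FPKM (y axis, log scale) of the 10 genes (x axis) in each of the 8 PBS libraries (blue) and 8 EAE libraries (red), with black bars for the mean ± SD. *Olig1* has the highest values, from 20.7 to 41.6, *Gpr17* the widest spread, from 2.84 to 16.2, and *Enpp6* and *Bmp4* lie near 1.

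The remaining 4 genes mark cells between the precursor and the myelinating stage. *Gpr17* encodes a receptor that is switched on in committed precursors and must be switched off again before myelination. Its FPKM was 2.84, 4.83 and 15.2 (lowest, median and highest) in EAE libraries and 4.10, 6.15 and 16.2 in PBS libraries. The libraries above 10 were EAE 3, EAE 4, PBS 2, PBS 4 and PBS 6, and the groups overlapped. Its highest value was 5.68 times its lowest, where the same ratio was 1.29 for *Myrf* to 2.37 for *Bmp4* among the other 9 genes. The coefficient of variation was 62.4% in EAE and 51.8% in PBS libraries, while counting alone gives 3.31% and 2.77%. With that spread the log2FC of −0.37 had an SE of 0.32 and an adjusted p of 0.581 in edgeR's test, and its interval ran from −1.03 to 0.28. Leaving out 1 library moved it from −0.66 without EAE 4 to −0.17 without PBS 4. Within the 6 libraries most alike, *Gpr17* was 4.07 to 4.37 in EAE and 5.41 to 5.57 in PBS libraries. The log2FC there was −0.42 with an adjusted p of 9.37e-05 in edgeR's test, in the fit that called 24.1% of all mRNAs.

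*Gpr17* lies on the minus strand of chromosome 18 (GRCm38, 31942997 to 31949636) within *Lims2*, a gene on the plus strand. The library kit keeps strand, but the strand setting of the counting is not given in the sources used here. *Lims2* was listed with FPKM values of 1.17 to 2.26 in EAE and 1.83 to 2.39 in PBS libraries, below those of *Gpr17* in every library. After the group means were removed, its r with *Gpr17* over the 16 libraries was 0.371 (permutation p = 0.189; rho 0.509, permutation p = 0.0571). Of the 10 genes, 5 overlap another annotated gene, namely *Pdgfra*, *Olig1*, *Gpr17*, *Enpp6* and *Bmp4*, and *Lims2* was the only such neighbour with counts in the tables.

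**Figure D4:**
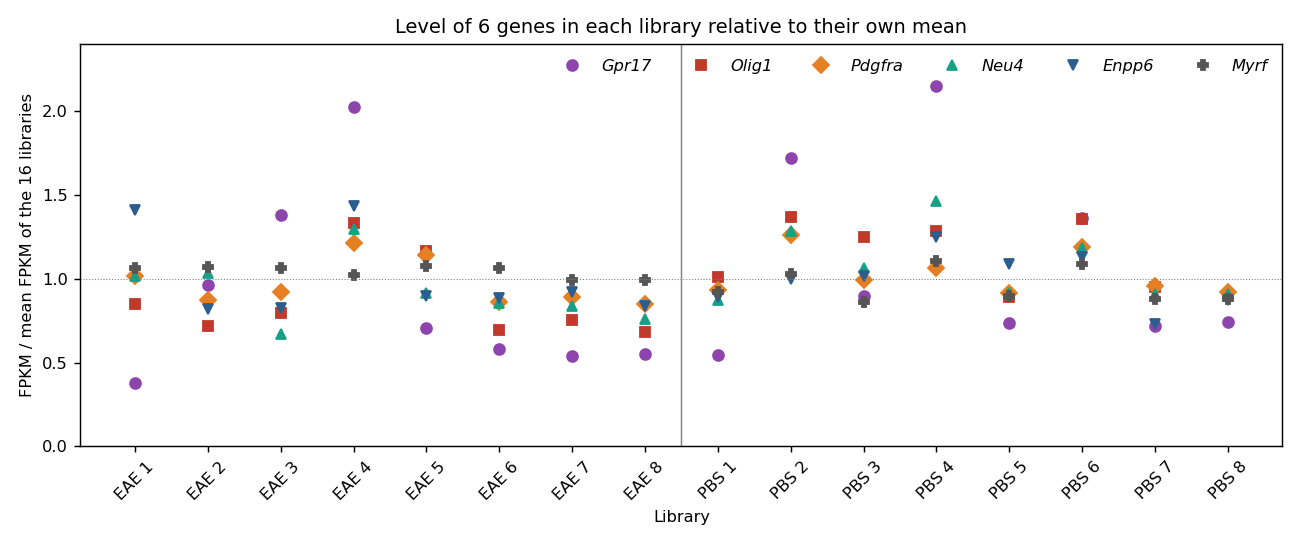
FPKM of 6 genes in each library (x axis) divided by the mean FPKM of that gene over the 16 libraries (y axis; dotted line, 1; vertical line, border between EAE and PBS libraries). *Gpr17* departs most from 1, *Myrf* least, and EAE 4, PBS 2, PBS 4 and PBS 6 are high for *Gpr17* and *Olig1* together.

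*Enpp6*, a choline-specific phosphodiesterase of newly forming oligodendrocytes, was measured near 1 FPKM. Its values were 0.832, 0.907 and 1.46 (lowest, median and highest) in EAE libraries and 0.743, 1.02 and 1.27 in PBS libraries. EAE 1 and EAE 4, at 1.43 and 1.46, stood above every PBS library, and the other 6 EAE libraries were within the PBS range. The log2FC was −0.04 (SE 0.14, adjusted p = 0.919 in edgeR's test). *Bmp4*, a ligand of the TGF-beta family that is expressed in committed precursors and restrains differentiation, had the lowest level, at 0.461, 0.763 and 1.08 in EAE and 0.454, 0.838 and 1.03 in PBS libraries. Its counts were only 29 to 77 per library. Counting alone gives a coefficient of variation of 14.8% in EAE and 14% in PBS libraries, of the 26.5% and 27.0% observed. The log2FC was −0.04 (SE 0.21, 95% confidence interval −0.47 to 0.39, adjusted p = 0.941 in edgeR's test). *Neu4*, a sialidase, was 1.5, 1.99 and 2.91 in EAE and 1.96, 2.22 and 3.29 in PBS libraries. The 4 lowest EAE libraries were below every PBS library. Its log2FC of −0.27 (SE 0.13, 95% confidence interval −0.55 to 0.00) had an unadjusted p of 0.0509 and an adjusted p of 0.289 in edgeR's test.

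Ordered by mean FPKM over the 16 libraries, the genes were *Olig1* (30.4), *Pdgfra* (13.9), *Myrf* (13.1), *Gpr17* (7.51), *Olig2* (7.28), *Sox10* (6.60), *Cspg4* (6.22), *Neu4* (2.24), *Enpp6* (1.02) and *Bmp4* (0.754). *Olig1* was above *Pdgfra* in 16 of 16 libraries, and the steps from *Cspg4* to *Neu4*, *Enpp6* and *Bmp4* also held in all 16. Between *Pdgfra* and *Myrf*, between *Olig2* and *Sox10* and between *Sox10* and *Cspg4*, the order held in 11 libraries each, and that of *Myrf* and *Gpr17* in 14. *Gpr17* was above *Olig2* in only 6, so these neighbours did not differ beyond their spread.

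The share of precursor to mature transcripts was also compared. The summed FPKM of *Pdgfra* and *Cspg4* was 1.66% ± 0.104 (SD, n = 8) of that of the 15 mature oligodendrocyte genes in EAE libraries, against 1.65% ± 0.112 (SD, n = 8) in PBS libraries. For *Gpr17*, *Enpp6*, *Bmp4* and *Neu4* together it was 0.888% ± 0.344 and 0.982% ± 0.343, with the highest values in EAE 4 and PBS 4. Without *Gpr17*, it was 0.327% ± 0.0578 and 0.332% ± 0.0435. For all 10 genes it was 7.13% ± 0.806 and 7.44% ± 0.839. Each of these differences was smaller than 1 SD of either group.

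Other genes of the lineage were counted in lists. Of 13 further OPC genes, 9 were lower and 4 higher, 0 passed an adjusted p of 0.05, and the median log2FC was −0.12. The smallest p-values were those of *Cacng4*, a subunit of AMPA receptor complexes (PBS 17.2 ± 1.51 and EAE 14.8 ± 1.47 FPKM, log2FC −0.27, adjusted p = 0.0580 in edgeR's test), and *Cspg5*, a brain proteoglycan (PBS 56.6 ± 3.08 and EAE 50.6 ± 7.14 FPKM, log2FC −0.21, adjusted p = 0.101). For *Cacng4* the adjusted p was 0.0162 by DESeq2, and leaving out a library gave one under 0.05 in 4 of 16 fits. Of 10 further genes of newly formed oligodendrocytes, 8 were lower and 2 higher, again with 0 calls and a median of −0.05. *Rras2*, a small GTPase, had the smallest p (log2FC 0.23, adjusted p = 0.0571 in edgeR's test). Its adjusted p was under 0.05 by DESeq2 (0.0148) and by limma on log2(FPKM + 0.1) (0.0406) and log2(FPKM + 1) (0.0439). The same held with library totals alone (0.0309), after edgeR's own expression filter (0.0439) and with the library set as a term (0.0405). In the other fits on all 16 libraries it stayed above 0.05, up to 0.0649 without a count filter. Leaving out a library gave one under 0.05 in 2 of 16 fits (up to 0.115, without EAE 2). Within the 6 libraries most alike it was 0.121, and within the other 10 it was 0.302. *Rras2* was followed by *Tns3*, a focal adhesion protein (log2FC −0.21, adjusted p = 0.0988). Of the 15 mature oligodendrocyte genes, 11 were lower and 4 higher, with 0 calls and a median of −0.05. *Opalin*, a membrane protein of oligodendrocytes, had a log2FC of 0.41 (adjusted p = 0.128 in edgeR's test).

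The regulators were counted in the same way. Of 7 further activators of transcription in the lineage, 5 were lower and 2 higher, with 0 calls and a median log2FC of −0.05. *Zfp488* (−0.31) and *Sox8* (−0.17) had the smallest p-values. *Tcf7l2* of this list was also counted among the newly formed oligodendrocyte genes, and *Sox6* both among the OPC genes and the inhibitors. Of 7 inhibitors of differentiation, 5 were lower and 2 higher, with 0 calls and a median of −0.12. *Lingo1*, a receptor component that restrains myelination, had a log2FC of −0.17, and *Id4*, which blocks helix-loop-helix factors, one of −0.22 (adjusted p under 0.05 only without EAE 4 and within the 6 libraries most alike). Of 5 genes for the PDGF ligands and the other PDGF receptor, 2 were higher and 3 lower with 0 calls and a median of −0.03, with *Pdgfb* at 0.22 and *Pdgfrb* at −0.14. Of 18 further genes of the BMP pathway, 14 were lower and 4 higher, with a median of −0.13. Among the 6 libraries most alike, several of the genes named here had an adjusted p under 0.05 in edgeR's test, with the sign they had over all 16. These were *Cacng4* (0.0112), *Cspg5* (1.23e-06), *Tns3* (3.11e-05), *Opalin* (0.0182), *Sox8* (0.00767), *Id4* (0.00202), *Pdgfb* (0.00210) and *Pdgfrb* (0.0224), in the fit that called 24.1% of all mRNAs. All were named for a small p over all 16 libraries, of which the 6 are part. Their sign and calls within the 6 are therefore no separate evidence.

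*Nog* was the 1 gene of these lists that passed. It encodes noggin, a secreted protein that binds BMPs and keeps them from their receptors. The FPKM of *Nog* was 1.03 to 2.08 in EAE and 1.56 to 2.48 in PBS libraries, so the ranges overlapped. The EAE mean was 1.40 ± 0.324 (SD, n = 8), the PBS mean was 2.06 ± 0.309 (SD, n = 8), and the log2FC was −0.60 (SE 0.15, adjusted p = 0.0326 in edgeR's test). Of the 16 fits with a library left out, 7 kept it under 0.05, and it reached 0.0823 without PBS 2. It was lost without EAE 1, 2, 3 or 8 and without PBS 2, 3, 5, 7 or 8. The log2FC was −0.55 within the 6 libraries most alike (adjusted p = 0.0672) and −0.64 within the other 10 (adjusted p = 0.189).

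To describe how the 10 genes moved together, log2 CPM values were correlated over the 16 libraries after the mean of each group was removed. CPM is the count scaled to the library total after TMM normalization. Of the 45 pairs, 44 had a Pearson's r above 0, with a median of 0.56. The adjusted permutation p was under 0.05 for r in 20 pairs and for Spearman's rho in 1 pair. All points share the library, so its cell composition and depth enter every pair. That pair was *Pdgfra* and *Olig1*, with an r of 0.941 and a rho of 0.968 (permutation p = 1e-05 for each, the smallest that 100000 permutations can give, and 0.00045 after adjustment over the 45 pairs). Without the 2 libraries farthest from the median of *Pdgfra*, r was 0.935. It was 0.988 within EAE, 0.890 within PBS, 0.935 within the 6 libraries most alike and 0.907 within the other 10. Other pairs lost their r within the 6, as did *Cspg4* and *Olig1* (0.765 over all 16, 0.130 within the 6 and 0.742 within the other 10) and *Olig1* and *Gpr17* (0.631, −0.575 and 0.470). *Bmp4* stood least with the others, with a median r of 0.133 over its 9 pairs, none of which passed.

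**Figure D5:**
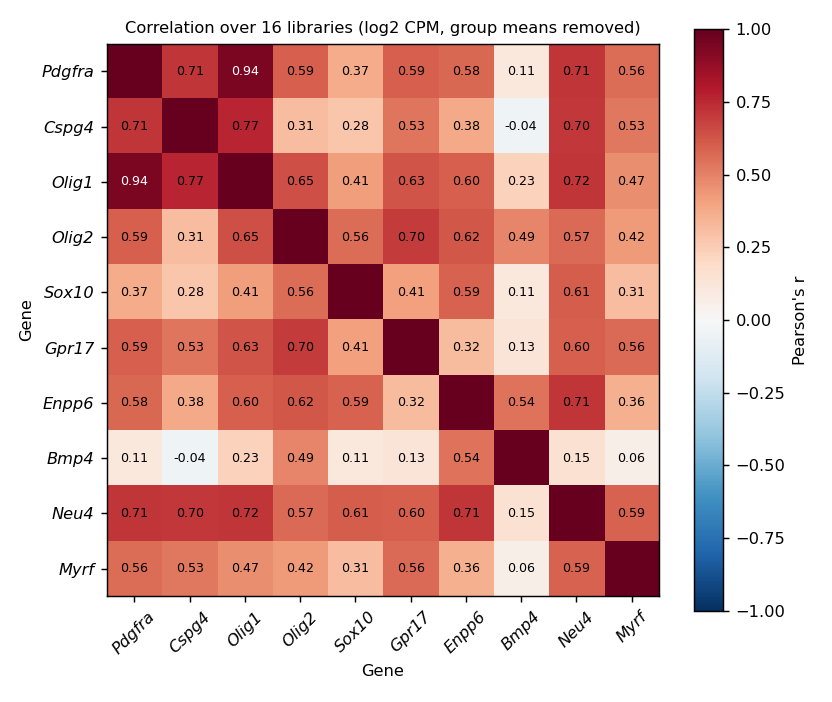
Pearson's r between each pair of the 10 genes (both axes) over the 16 libraries, on log2 CPM with group means removed (colour scale from −1 to 1, values printed in the cells). The highest r is that of *Pdgfra* and *Olig1*, 0.94, and the row of *Bmp4* is the palest.

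Single libraries carried much of this shared movement. EAE 4 had the highest FPKM of the EAE group for 9 of the 10 genes, with EAE 5 highest for *Myrf*, and PBS 4 had the highest of the PBS group for 6. The summed FPKM of the 10 genes was 71.5 to 117 in EAE and 78.1 to 115 in PBS libraries, with the highest value of each group in EAE 4 and PBS 4. These libraries also had the highest summed microglia FPKM of their groups (210 and 189) and the lowest neutrophil sums (19.5 and 7.59). The levels of *Olig1* followed the summed 13 other OPC genes, with an r of 0.936 and a rho of 0.891 (permutation p = 1e-05 for each, and 0.0014 after adjustment over 140 relations of genes and lists). This r was 0.876 without the 2 farthest libraries and 0.920 within the other 10, but −0.0554 within the 6 libraries most alike. With the summed mature oligodendrocyte genes, *Olig1* had an r of 0.886 and a rho of 0.841 (permutation p = 8e-05 for each, and 0.0028 and 0.00315 after adjustment). Without the 2 farthest libraries r was 0.896, and within the other 10 libraries it was 0.843, but within the 6 libraries most alike it was −0.224. With the astrocyte genes, *Olig1* had an r of 0.803 (permutation p = 0.00134, adjusted 0.0235) and a rho of 0.685 (adjusted p = 0.0684), and an r of 0.628 without the 2 farthest libraries, −0.337 within the 6 and 0.829 within the other 10. For *Gpr17*, r with the mature genes was 0.490 (permutation p = 0.0687, adjusted 0.214; rho 0.635, adjusted p = 0.0982). It was 0.726 with the microglia genes (permutation p = 0.00217, adjusted 0.0293; rho 0.697, adjusted p = 0.0790) and 0.713 with the fibroblast genes (permutation p = 0.00166, adjusted 0.0258; rho 0.491, adjusted p = 0.221). Without the 2 farthest libraries these were 0.520 and 0.596, within the 6 libraries most alike −0.00617 and −0.283, and within the other 10 they were 0.692 and 0.722. The part of cell composition in the *Olig1* difference was not tested.

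The mRNAs whose pattern over the 16 libraries was most like each gene were sought among those with a mean FPKM of at least 1, by r on log2 CPM with group means removed. For *Pdgfra* they included *Olig1* (0.941) and *Uqcr10* (0.932), and for *Olig1* they were *Gstm5* (0.963), *Cyp2j9* (0.962) and *Nkain4* (0.959). *Gpr17* was most like *Fut9* (0.964), *Ndfip2* (0.926) and *AW209491* (0.915), and *Olig2* most like *Nat8f1* (0.962), *Tspan31* (0.951) and *C87436* (0.914). *Cspg4* was most like *Ahcyl2* (0.938), *Mertk* (0.930) and *Fam63b* (0.919), *Sox10* like *Ntpcr* (0.925), *Bhlhb9* (0.898) and *Cln8* (0.885), and *Neu4* like *Adora2a* (0.936), *Cdh11* (0.934) and *Cisd1* (0.925). *Enpp6* was most like *Mavs* (0.898), *Acsl5* (0.891) and *Tmem19* (0.871). For *Bmp4* and *Myrf* the likeness was weaker, with *Upf3a* (0.857), *E130311K13Rik* (0.829) and *Cep120* (0.798) for the former and *Col15a1* (0.844), *Il1rap* (0.842) and *Sorcs1* (0.838) for the latter. The r of *Myrf* with *Col15a1* was 0.654 without the 2 farthest libraries.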

How the data were processed

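The authors deposited a table of counts and a table of FPKM, covering the same mRNAs. They prepared stranded total RNA libraries after removal of ribosomal RNA, aligned reads to GRCm38 with HISAT2 2.1.0 and counted them with HTSeq 0.11.2. DESeq2 1.22.2 and bcl2fastq are also named in the submitters' processing notes. The annotation release and strand setting are not given in the sources used here. The deposited FPKM values equal count over library total over a length per mRNA, to within 1.15e-09 of the value where every library held over 500 counts (7749 mRNAs). Each library was taken as 1 mouse, and 0 columns of sample values were left unused.

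Counts were tested with edgeR 4.0.16 (R 4.3.3) by quasi-likelihood after TMM normalization, condition only, on mRNAs whose counts summed to 16 or more, with Benjamini-Hochberg adjustment. The SE is |log2FC| over the square root of F. On simulated counts with 200 of 17770 genes changed by a log2FC of 1.5, 84.3% were recovered at an adjusted p under 0.05, with 6.18% false calls. The simulated libraries were drawn independently, and the log2FC of each of the 10 genes was far smaller. The recovery of differences of that size was therefore not measured. FPKM values were compared by two-sided exact permutation over all divisions (smallest p 0.000155), and correlations by 100000 permutations within groups. DESeq2 1.42.0, limma 3.58.1 on log2(FPKM + 0.1) or log2(FPKM + 1), other scalings and filters, a replicate block and fits without each library were alternatives. The sets of 6 and 10 libraries were added after the data were seen. The 10 genes and the lists were chosen with earlier results of these data known. From each list, genes with an adjusted p under 0.05 are named, or else the 2 with the smallest p (for endothelial, fibroblast and T cell genes, counts only), and for each of the 10 genes the 3 mRNAs most like it. Of these, 1 gene is not reported here. In the labels, same-numbered libraries of the groups share only a number. No promoter or protein sequence is shown, since the values are RNA levels. Positions are from GENCODE M21. Values rest on 8 libraries per group, and the coefficients of variation given for counting cover counting error only.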

Additional observations from a re-analysis of the deposited data

How the results depend on the processing

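None of the 10 genes passed under the other scalings, filters and tests run on all 16 libraries. Leaving out 1 library gave 0 to 1 of them (*Olig1*), the 6 libraries most alike 4, the library set as a term 1 and the other 10 libraries 0. All mRNAs with an adjusted p under 0.05, 433 in edgeR's test, numbered 899 by DESeq2, 205 and 237 by limma on log2(FPKM + 0.1) and log2(FPKM + 1), 144 to 1317 with 1 library left out, 4147 within the 6 libraries, 13 within the other 10 and 768 with the set as a term. The 21 with a |log2FC| over 1 became 5 by limma on log2(FPKM + 1), 13 to 49, 177, 6 and 38. Scaling by library totals alone gave 226 higher and 103 lower in place of 118 and 315, with the median log2FC of all mRNAs moving from 0.01 to 0.06. With the replicate number as a block, 150 mRNAs were higher and 367 lower (517 in all), with 0 of the 10 genes. The adjusted p in that edgeR fit was 0.0647 for *Olig1*, 0.0627 for *Nog*, 0.121 for *Gpr17* and 0.148 for *Neu4*. The SE of *Gpr17* was 0.14 in place of 0.32. The correlation of same-numbered libraries was −0.257 to 0.590, highest for EAE 4 and PBS 4. The distance between these 2 libraries, 5.29, was the lowest between groups. As the labels name no pairs, none was assumed in the main fit.

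The call on *Nog* was also lost with library totals alone (adjusted p = 0.0536, edgeR). Some signs turned. The log2FC within the 6 libraries was 0.10 for *Cspg4*, −0.11 for *Sox10* and, for *Gfap*, −0.0473 in place of 0.50. With library totals alone it was 0.00998 for *Enpp6* and 0.00626 for *Bmp4*, and for *Bmp4* 0.00851 and 0.00281 by limma with 0.1 and 1 added. With 1 library left out it ran from −0.0145 to 0.0747 for *Sox10*, −0.128 to 0.0129 for *Enpp6* and −0.130 to 0.0304 for *Bmp4*. The FPKM difference of *Enpp6* was −0.00832 on log2(FPKM + 0.1). With 1 library left out, the difference in mean FPKM ran from −0.569 to 0.101 for *Olig2*, −0.0558 to 0.0426 for *Enpp6* and −0.0432 to 0.0447 for *Bmp4*. Counting error was largest for *Bmp4*.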

Other observations

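The mRNAs that ran most against the 10 genes over the 16 libraries were looked up after the data were seen, with group means removed from log2 CPM. Among 13309 mRNAs, the lowest r with *Olig1* was that of *Ccl3*, a chemokine of activated microglia and macrophages (r = −0.977, rho = −0.959). It was −0.961 without the 2 farthest libraries, −0.978 within EAE, −0.985 within PBS, −0.752 within the 6 libraries most alike and −0.962 within the other 10. The FPKM of *Ccl3* was 2.53 at the lowest, 12.3 at the median and 15.7 at the highest in EAE libraries, and 1.59, 4.0 and 8.13 in PBS libraries. Its lowest EAE value was in EAE 4, where *Olig1* was highest, and its lowest PBS value in PBS 6, where *Olig1* was near its highest. The log2FC of *Ccl3* was 1.16 (SE 0.37, adjusted p = 0.0993 in edgeR's test). As the lowest of many values, this r is given as a description with no test.

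For *Myrf* the lowest r was also that of a chemokine gene, *Ccl7* (−0.875), but it was −0.481 within EAE and −0.144 within the 6 libraries most alike. The lowest r with *Pdgfra* was that of *Dyrk1b*, a protein kinase gene (−0.969), and with *Olig2* that of *Elmo2*, a gene of cell engulfment and migration (−0.957). Within the 6 libraries most alike, these were −0.570 and −0.967.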
